A study of Homo sapiens with 36 samples.

Results

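The genes described here serve protein folding and quality control in the endoplasmic reticulum and the signalling that adjusts it, the unfolded protein response. They were taken by name from the gene expression table: 32 listed symbols and ERO1L (now named ERO1A), 33 genes of 21950 in all, and each was found. All 33 passed the filter for testing, a mean of at least 1 FPKM (fragments counted relative to transcript length and to the library's mapped fragments). Messenger RNA was sequenced from K562, a human leukaemia line with erythroid features, and the labels name no genetic change and no treatment other than oxygen for any group. Plates were kept at 1%, 5% or 21% oxygen and RNA was taken after 6 h, after 24 h, after 3 d and after 6 d. Each of the 12 groups had 3 libraries, and the cells were passaged at 3 d. Each level had its own incubator, so incubator and oxygen cannot be told apart. Nothing in the labels says that the replicates came from separate cultures, so the p-values measure the spread between libraries, which may be technical.

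Secreted and membrane proteins enter the endoplasmic reticulum through the Sec61 channel and fold there with the help of chaperones and enzymes that make disulfide bonds. When unfolded proteins accumulate, the sensors IRE1 (gene ERN1), PERK (gene EIF2AK3) and ATF6 signal to the nucleus: IRE1 cuts the XBP1 messenger RNA so that an active transcription factor is made, PERK slows translation and favours ATF4, and ATF6 is released as a transcription factor. The target genes enlarge the folding capacity and the removal of misfolded proteins, called endoplasmic reticulum associated degradation. Disulfide formation uses molecular oxygen as an electron acceptor, and the pathway is known to respond when oxygen is scarce.

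Replicate 3 of 1% oxygen at 3 d is called the shallow library: it had 7220 genes above 0 FPKM, against 14512 to 19543 in the other 35, and it listed 429 of the 3695 genes of high level (a median above 20 FPKM) at 0, against at most 7 elsewhere. It was left out of the tests, so 1% oxygen at 3 d rests on 2 libraries, and the counts that move with it are also given with it included. The files hold no counts. Relative depth, estimated from the steps that weakly expressed genes take, ran from 0.436 to 1.56 in the other libraries. The lowest value was that of replicate 1 of 1% oxygen at 3 d, 1 of the 2 libraries kept there. Replicate 2 of that group had 0.877, and replicate 3 of 21% oxygen at 24 h had 0.440. The part of depth in the differences was not tested. Markers of K562 were high, with a median of 216 FPKM for GATA1, and 9 of 13 markers of other cell types had a median under 1 FPKM. The exceptions were CD3D, LYZ, EPCAM and COL1A2. In bulk libraries, fewer cells of a kind and less RNA per cell cannot be told apart. Differences below are on the log2(FPKM + 1) scale, which understates changes of weakly expressed genes, with their standard error, and adjusted p-values come from limma with Benjamini-Hochberg adjustment over 10586 genes. A gene was called at an adjusted p under 0.05.

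The members spanned a wide range of levels. Over the 35 libraries SEC61B, a subunit of the Sec61 channel, averaged 466 FPKM and SDF2L1, a partner of endoplasmic reticulum J proteins, averaged 367 FPKM. At the other end stood the sensors ERN1 and EIF2AK3 with means of 2.00 and 1.05 FPKM. The members that varied most between groups, by the ratio of the highest to the lowest group mean, were SEC24D (6.33), ERO1L (5.72), EIF2AK3 (4.37), HERPUD1 (4.13), MANF (4.07), DNAJB9 (4.00) and HSPA5 (3.89). The steadiest were DERL1 (1.20) and ATF6 (1.23).

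The members called differed by time. At 6 h 0 members were called between any pair of oxygen levels, and at 24 h 3 were called between 1% and 5% (all genes, 2.94%). At 3 d 13 members were higher in 1% oxygen (25.1% of all genes were) and 14 in 5% oxygen (15.7% of all genes) than in 21%. At 6 d 10 members were higher in 5% oxygen than in 21% (15.2% of all genes), while in 1% oxygen 1 was higher (13.8% of all genes) and 8 were lower (16.1%). Including the shallow library, the 13 became 8 (16.9% of all genes) and the 14 became 11 (877 of 10625 genes). The 10 became 4 (7.24%) and the 8 lower became 5 (535 of 10625 genes). HSPA5 encodes BiP, the central chaperone that binds unfolded chains and keeps the sensors inactive, and it showed this course plainly. Over 6 h, 24 h, 3 d and 6 d its means were 143, 114, 414 and 125 FPKM in 1% oxygen, 160, 141, 443 and 255 FPKM in 5% oxygen, and 145, 142, 181 and 157 FPKM in 21% oxygen.

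**Figure D1:**
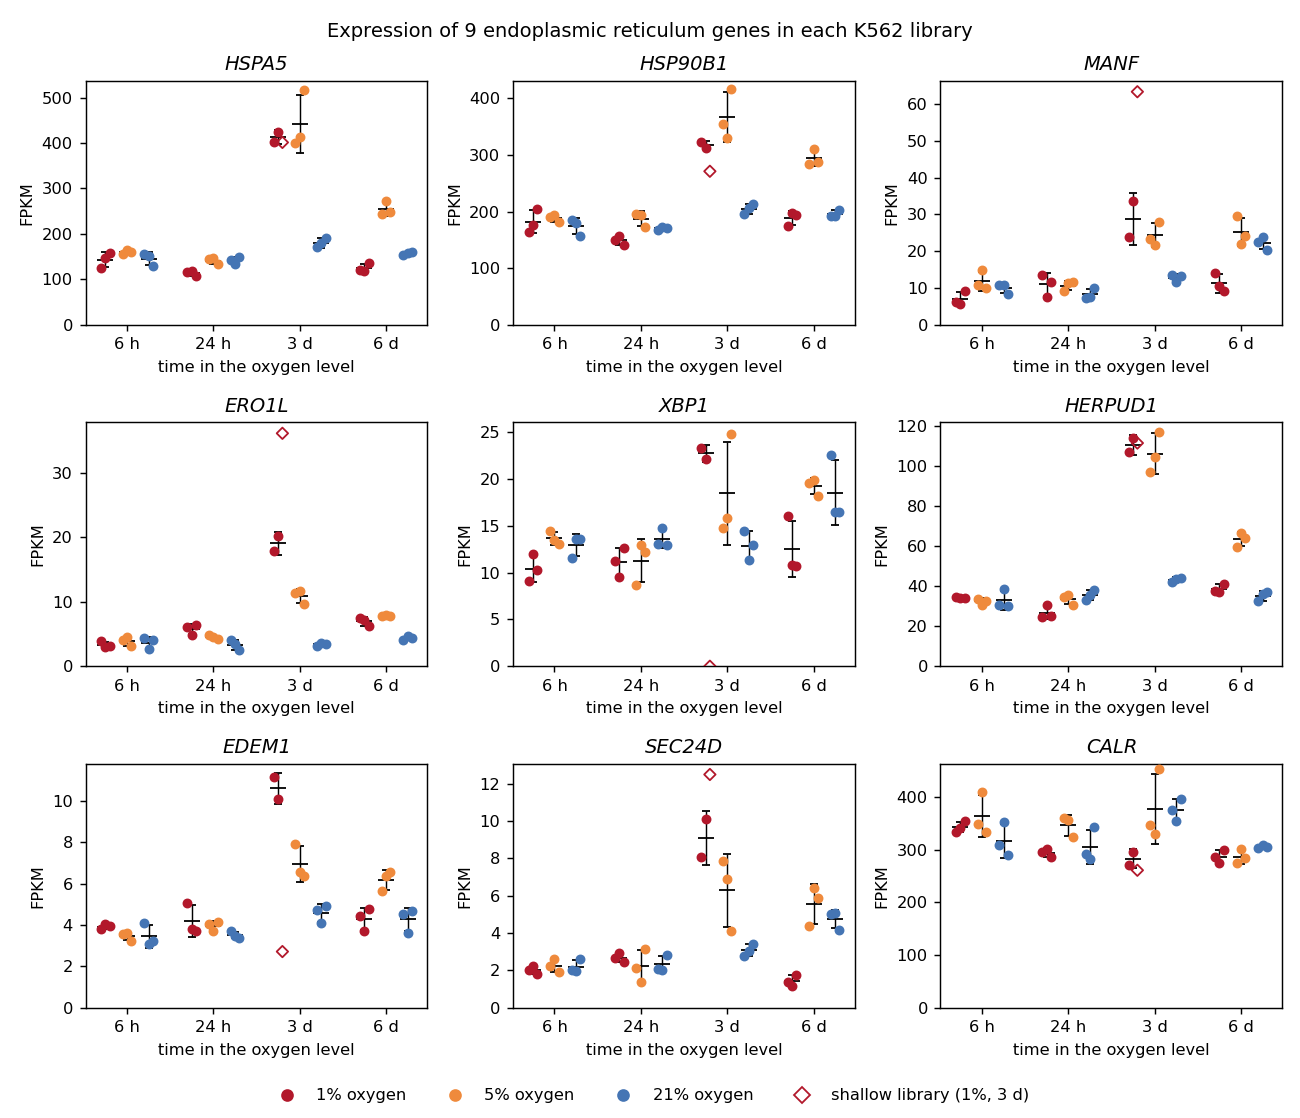
FPKM of 9 members in each library (points) by time, with 1%, 5% and 21% oxygen side by side; black marks are the mean ± SD of 3 libraries, or of 2 for 1% oxygen at 3 d, where the open diamond is the shallow library. HSPA5, HSP90B1, HERPUD1 and SEC24D are high at 3 d in both 1% and 5% oxygen, and at 6 d all 3 libraries of 1% oxygen lie below all 3 of 5% oxygen for these genes, while CALR shows no such course.

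Promoters of this gene group are known for the endoplasmic reticulum stress element, ERSE, which ATF6 and XBP1 bind. RefSeq promoter windows (GRCh38.p14, 250 bases before to 50 after the start) were present for 30 of the 33 members. The letters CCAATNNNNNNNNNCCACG, on either strand, were found in 7 of these 30, namely HSPA5, HSP90B1, CALR, CANX, CRELD2, PDIA6 and XBP1, against 0.0769% of all 35116 windows. The related ERSE-II, ATTGGNCCACG on either strand, was found in HERPUD1, HYOU1 and SDF2L1, against 0.0541% of all windows. The sites below are those of the 5 members with a match that were lower in 1% than in 5% oxygen at 6 d, and for contrast that of CALR, which did not differ there. The other members with a match, CRELD2, SDF2L1, HYOU1 and CANX, were not called there, and of these only CANX had a difference above 0. HSP90B1 has a further match on the opposite strand. Capitals mark the match, which in CALR reads on the opposite strand and so as its reverse complement.
HSPA5, minus strand, chr9:125241371-125241429: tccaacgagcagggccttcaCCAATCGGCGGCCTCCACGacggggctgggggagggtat
HSP90B1, plus strand, chr12:103930196-103930254: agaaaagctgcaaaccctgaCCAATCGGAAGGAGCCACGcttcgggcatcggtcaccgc
PDIA6, minus strand, chr2:10812833-10812891: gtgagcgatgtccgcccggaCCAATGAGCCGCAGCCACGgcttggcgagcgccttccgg
XBP1, minus strand, chr22:28800583-28800641: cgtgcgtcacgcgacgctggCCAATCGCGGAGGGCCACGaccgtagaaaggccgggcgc
CALR, plus strand, chr19:12938364-12938422: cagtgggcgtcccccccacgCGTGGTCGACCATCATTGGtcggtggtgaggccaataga
HERPUD1, ERSE-II, plus strand, chr16:56932005-56932055: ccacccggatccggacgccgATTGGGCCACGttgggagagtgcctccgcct

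A match is a description of these letters and not evidence of binding. Counted per gene, as the members are, ERSE was found in 0.0916% and ERSE-II in 0.0696% of the 27305 genes with a window. At 6 d, 5 of the 10 members with an ERSE or ERSE-II match were called lower in 1% than in 5% oxygen (11.4% of all genes were), with a median difference of -0.50 over the 10 (HSPA5, HSP90B1, PDIA6, XBP1 and HERPUD1 were the called ones). Among the 20 members with a window and no match, 6 were called lower and the median was -0.16. Including the shallow library, 3 of the 10 and 3 of the 20 were called lower, against 3.9% of all genes. The shorter core ACGTG, which hypoxia inducible factors recognise within a longer site, is common. It was present in 17 of the 30 members (56.7%), ERO1A among them, and in 24.9% of the genes with a window, either strand counted. The form GCGTG was present in 19 of the 30 members (63.3%) and in 40.6% of those genes.

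At 6 d, 12 of 33 members (36.4%) were called lower in 1% than in 5% oxygen and 0 were called higher, against 11.4% of all genes tested called lower and 16.1% called higher (27.5% in either direction). The median difference of the members was -0.24, and that of all genes was 0.04. This background depends on the filter on mean FPKM. Without it, 1756 of 21454 genes were called higher and 3942 lower, with a median of -0.07. Libraries of the groups did not overlap for 17 members that were lower in 1% and for 2 that were higher (CANX and TXNDC5), against 18.5% and 26.9% of all genes. With values rescaled to TPM, which gives every library the same total, the median of all genes moved to -0.12 and their calls turned to 434 higher and 1570 lower, while 16 members were called, all lower. With the shallow library in the fit, the values at 6 d were the same but the pooled spread was larger, and 7 members were called, all lower, against 8.61% of all genes (4.72% higher and 3.9% lower). Those 7 were HSPA5, HSP90B1, MANF, ERN1, HERPUD1, SYVN1 and SEC24D.

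**Figure D2:**
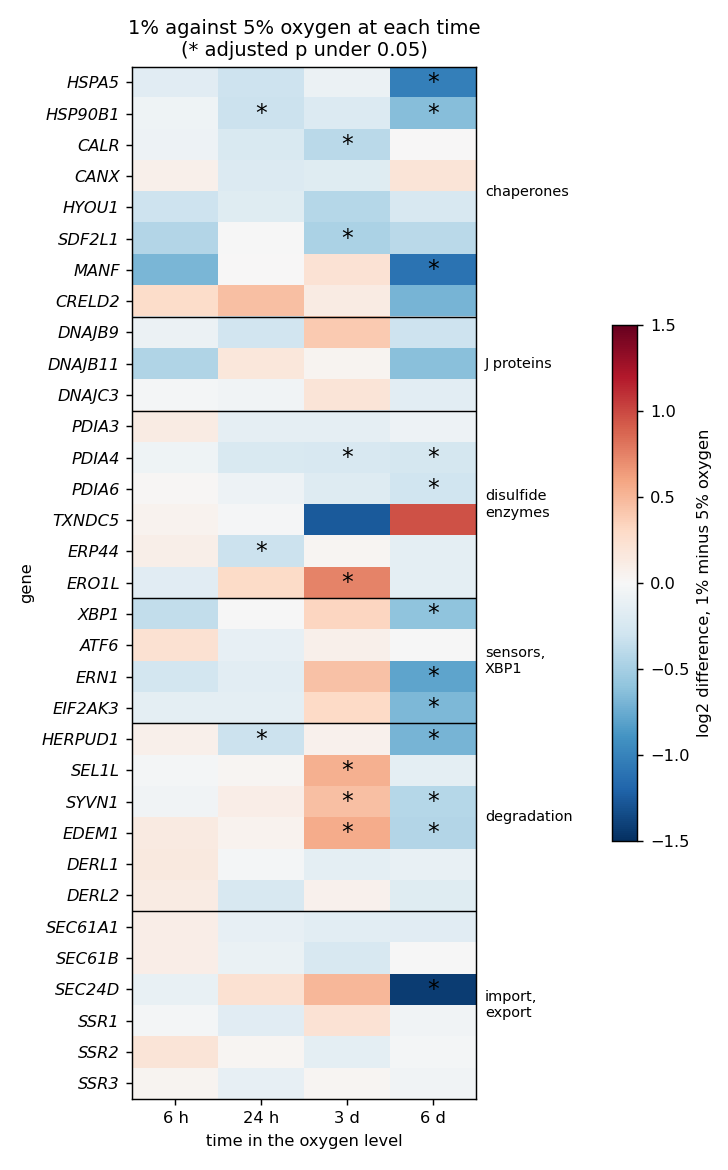
Log2 difference, 1% minus 5% oxygen, for the 33 members (rows, by role) at the 4 times (columns); red is higher in 1%, blue lower, and an asterisk marks an adjusted p under 0.05. The 12 asterisks at 6 d are all blue, whereas at 3 d 4 are red and 3 blue.

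Among the 8 chaperones and their cofactors, 3 were called lower at 6 d. HSPA5 had 120.5, 119 and 136 FPKM in 1% oxygen, against 244, 272 and 248 FPKM in 5% oxygen and 153, 157 and 161 FPKM in 21% oxygen. The 3 groups did not overlap, with 5% highest and 1% lowest. The difference between 1% and 5% was -1.02 ± 0.09 (adjusted p = 1.65e-09). HSP90B1, which encodes the chaperone GRP94, had 174, 197 and 193 FPKM in 1% oxygen and 285, 310 and 287 FPKM in 5% oxygen, a difference of -0.64 ± 0.08 (adjusted p = 1.05e-06). Its libraries in 21% oxygen, at 193, 191 and 203 FPKM, overlapped those of 1%. MANF, a secreted and luminal protein that stabilises BiP with its clients, had 14.2, 10.4 and 9.21 FPKM in 1% oxygen, 29.5, 22.0 and 24.0 FPKM in 5% oxygen and 22.4, 23.8 and 20.5 FPKM in 21% oxygen. For MANF every library of 1% oxygen was below every library of the other levels, and the difference from 5% was -1.10 ± 0.19 (adjusted p = 7.76e-05).

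The other chaperones did not pass at 6 d. CRELD2, a stress-induced disulfide isomerase, had 15.1, 9.48 and 6.91 FPKM in 1% oxygen and 17.3, 17.6 and 15.8 FPKM in 5% oxygen, with a difference of -0.70 ± 0.27 (adjusted p = 0.0551). SDF2L1 had a difference of -0.40 ± 0.16 (adjusted p = 0.057). CALR and CANX, the lectin chaperones calreticulin and calnexin of glycoprotein folding, had 0.00 ± 0.09 and 0.19 ± 0.14. The calreticulin libraries lay between 275 and 299.6 FPKM in 1% oxygen and between 275 and 300.5 FPKM in 5% oxygen, which is nearly the same range. HYOU1, a large chaperone of the HSP110 class, had -0.24 ± 0.16 (adjusted p = 0.253).

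None of the 3 J proteins, which drive the ATP cycle of BiP, was called at 6 d. DNAJB9 had 16.0, 21.5 and 24.5 FPKM in 1% oxygen, 25.7, 28.4 and 22.8 FPKM in 5% oxygen and 16.3, 13.4 and 18.0 FPKM in 21% oxygen, with a difference between 1% and 5% of -0.31 ± 0.17 (adjusted p = 0.18). DNAJB11 had 65.1, 72.7 and 41.5 FPKM in 1% oxygen against 89.6, 90.6 and 90.8 FPKM in 5% oxygen. Its groups did not overlap, but the spread within 1% was wide and the difference of -0.63 ± 0.26 did not pass (adjusted p = 0.0777). DNAJC3, which also restrains PERK, had -0.15 ± 0.12 (adjusted p = 0.371).

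Of the 6 disulfide enzymes, PDIA4 and PDIA6 were called lower at 6 d, by small amounts. PDIA6, a protein disulfide isomerase, had 256, 248 and 256 FPKM in 1% oxygen and 304, 323 and 310 FPKM in 5% oxygen, a difference of -0.30 ± 0.07 (adjusted p = 0.00239). PDIA4, another isomerase, differed by -0.26 ± 0.07 (adjusted p = 0.00851). Neither passed with the shallow library in the fit, with adjusted p = 0.169 and 0.522. ERO1L encodes the oxidase that recharges protein disulfide isomerase and passes electrons to oxygen. At 6 d it had 7.56, 7.15 and 6.24 FPKM in 1% oxygen and 7.76, 8.02 and 7.75 FPKM in 5% oxygen. Its libraries of 1% lay just below those of 5%, and the difference of -0.15 ± 0.14 did not pass the test (adjusted p = 0.447). Both levels stood above 21% oxygen, where ERO1L had 4.01, 4.63 and 4.45 FPKM, with differences of 0.57 ± 0.14 for 1% (adjusted p = 0.00257) and 0.72 ± 0.14 for 5% (adjusted p = 0.000163).

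TXNDC5, a thioredoxin-like isomerase, is uncertain. The table holds a readthrough gene, BLOC1S5-TXNDC5, and the division of FPKM between both rows jumped from library to library. At 6 d TXNDC5 had 13.3, 11.3 and 12.3 FPKM in 1% oxygen and 4.61, 8.34 and 5.11 FPKM in 5% oxygen, but the sum of both rows was 13.3, 11.3 and 12.3 FPKM in 1% oxygen, 10.5, 8.49 and 11.2 FPKM in 5% oxygen and 16.9, 14.4 and 16.7 FPKM in 21% oxygen. On the sum, every library of 1% still lay above every library of 5%, the nearest at 11.3 and 11.2 FPKM. Both levels lay below 21%.

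Of the sensors and XBP1, all but ATF6 were called lower in 1% than in 5% oxygen at 6 d. XBP1, the transcription factor made after cutting by IRE1, had 16.0, 10.9 and 10.7 FPKM in 1% oxygen, 19.5, 19.8 and 18.2 FPKM in 5% oxygen and 22.5, 16.5 and 16.5 FPKM in 21% oxygen, and differed between 1% and 5% by -0.60 ± 0.16 (adjusted p = 0.00757). ERN1, the sensor IRE1 itself, had 1.47, 1.21 and 1.26 FPKM in 1% oxygen and 2.62, 2.69 and 3.76 FPKM in 5% oxygen, a difference of -0.79 ± 0.21 (adjusted p = 0.00561). EIF2AK3, the sensor PERK, had 1.36, 0.798 and 0.618 FPKM in 1% oxygen and 2.07, 1.83 and 2.22 FPKM in 5% oxygen, a difference of -0.67 ± 0.16 (adjusted p = 0.00264). For each of these genes all libraries of 1% were below all of 5%. XBP1 and EIF2AK3, which the shallow library listed at 0, lost the call with that library in the fit (adjusted p = 0.707 and 0.163). ATF6 had a difference of -0.01 ± 0.08.

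In the degradation group HERPUD1, SYVN1 and EDEM1 were called lower at 6 d, while SEL1L, DERL1 and DERL2 were not. HERPUD1, a membrane protein that assembles the degradation complex, had 37.5, 37.2 and 41.2 FPKM in 1% oxygen, 59.5, 66.4 and 64.0 FPKM in 5% oxygen and 32.4, 35.9 and 37.2 FPKM in 21% oxygen. The difference between 1% and 5% was -0.70 ± 0.09 (adjusted p = 1.42e-06). SYVN1, the ubiquitin ligase HRD1, had 11.2, 11.6 and 10.2 FPKM in 1% oxygen and 14.6, 15.3 and 15.4 FPKM in 5% oxygen, with -0.43 ± 0.10 (adjusted p = 0.00192). EDEM1, a lectin that hands misfolded glycoproteins to degradation, had a difference of -0.44 ± 0.11 (adjusted p = 0.00413), which did not pass with the shallow library in the fit (adjusted p = 0.347).

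Of the 6 genes of import and export, SEC24D was called, with the largest difference of the members. SEC24D encodes a cargo adaptor of the COPII coat, which buds transport vesicles from the endoplasmic reticulum. It had 1.39, 1.16 and 1.77 FPKM in 1% oxygen, 4.36, 6.41 and 5.90 FPKM in 5% oxygen and 5.01, 5.07 and 4.18 FPKM in 21% oxygen. All 3 libraries of 1% were far below the rest, and the differences were -1.42 ± 0.18 from 5% (adjusted p = 1.11e-06) and -1.24 ± 0.18 from 21% (adjusted p = 5.17e-06). The channel genes SEC61A1 and SEC61B and the signal sequence receptor subunits SSR1, SSR2 and SSR3 differed between 1% and 5% by -0.17 to -0.01 and none passed.

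The libraries at 6 d also differed in a measure outside this pathway. Of 394 olfactory receptor genes, whose products belong to sensory neurons, 23.6% to 37.1% were above 0 FPKM in the libraries of 1% oxygen, 66.0% to 74.6% in those of 5% and 39.6% to 48.2% in those of 21%. The part of this in the differences at 6 d was not tested. The nuclear-retained RNA MALAT1 was lower in 1% than in 5% at 6 d as well (-0.78 ± 0.20, adjusted p = 0.00473). It was the 1 called of 7 tested RNAs from a list of long noncoding RNAs.

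At 3 d, 7 of 33 members (21.2%) were called between 1% and 5% oxygen, 4 higher in 1% and 3 lower, against 26.9% of all genes tested, of which 16.5% were higher and 10.4% lower. That share is near the background. The members' median difference was 0.04 and that of all genes 0.06. Without the filter on mean FPKM, 4529 of 21454 genes were called higher and 1204 lower, with a median of 0.11. Rescaled to TPM, the median of all genes was 0.25 and all 7 members then called were higher. With the shallow library in the fit, 14 were called, 4 higher and 10 lower, against 36.6% of all genes (13.4% higher and 23.2% lower), and the median of all genes was -0.23. Olfactory receptor genes above 0 ran from 54.8% to 70.1% in the 2 libraries of 1% and from 48.0% to 56.3% in those of 5%. Of the 7 long noncoding RNAs, 4 were called higher in 1% and 0 lower, or 3 and 1 with the shallow library. MALAT1 was higher by 1.42 ± 0.22 (adjusted p = 7.17e-05), and its part in the differences was not tested.

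The higher members at 3 d were ERO1L and 3 of the degradation group. ERO1L had 17.9 and 20.3 FPKM in 1% oxygen (36.2 in the shallow library), 11.4, 11.7 and 9.71 FPKM in 5% oxygen and 3.13, 3.64 and 3.39 FPKM in 21% oxygen. The order from 1% through 5% to 21% had no overlap, and 1% exceeded 5% by 0.75 ± 0.16 (adjusted p = 0.00104), or by 1.05 with the shallow library. EDEM1 had 11.1 and 10.1 FPKM in 1% oxygen (2.71 in the shallow library) and 7.92, 6.55 and 6.34 FPKM in 5% oxygen, a difference of 0.55 ± 0.12 (adjusted p = 0.00206). With the shallow library the EDEM1 difference was 0.00 and the call was lost. SEL1L, the partner of HRD1, differed by 0.53 ± 0.15 (adjusted p = 0.010), and by 0.20 with the shallow library (adjusted p = 0.391). SYVN1 had 18.5 and 22.6 FPKM in 1% oxygen (28.2 in the shallow library) and 15.4, 16.8 and 12.1 FPKM in 5% oxygen, and 0.45 ± 0.11 passed with and without that library (adjusted p = 0.00374 without it). Without replicate 2 of 1% oxygen SYVN1 had 0.31 (adjusted p = 0.0986), and SEL1L lost its call without replicate 1 of 1% oxygen (0.39) or replicate 3 of 5% oxygen (0.46).

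The lower members at 3 d were SDF2L1 (-0.47 ± 0.18, adjusted p = 0.0464), CALR (-0.40 ± 0.11, adjusted p = 0.00678) and PDIA4 (-0.24 ± 0.08, adjusted p = 0.0308). CALR had 270.1 and 296 FPKM in 1% oxygen (261 in the shallow library), 347, 330.1 and 453 FPKM in 5% oxygen and 376, 355 and 396 FPKM in 21% oxygen. SDF2L1 had 260.2 and 388 FPKM in 1% oxygen (161 in the shallow library) and 416, 436 and 475 FPKM in 5% oxygen, and its difference ran from -0.76 without replicate 2 of 1% oxygen to -0.19 without replicate 1. It was called in 1 of the 5 fits that left out a library of these groups. These falls were less firm: without replicate 3 of 5% oxygen 4 members were called and without replicate 1 of 1% oxygen 3 were, all of them higher in 1%. HSPA5 did not differ between 1% and 5% beyond its spread at 3 d (-0.09 ± 0.10, adjusted p = 0.543), nor did HERPUD1 (0.06 ± 0.10, adjusted p = 0.689).

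Relative to 21% oxygen, whose libraries both comparisons share, 16 members were called at 3 d in 1% oxygen (13 higher, 3 lower) and 16 in 5% oxygen (14 higher, 2 lower). The background was 53.7% of all genes for 1% (25.1% higher and 28.6% lower) and 45.1% for 5% (15.7% higher and 29.4% lower), while 39.4% and 42.4% of the members were higher. Without the filter on mean FPKM, 7464 of 21454 genes were called higher and 3046 lower in 1%. For 5% these were 2351 higher and 2851 lower. With the shallow library in the fit, 11 members were called in 5% oxygen, 11 higher and 0 lower. Of all 10625 genes in that fit, 877 were called higher and 1442 lower in 5%. HSPA5 had 403 and 424 FPKM in 1% oxygen (401 in the shallow library), 399, 412 and 516 FPKM in 5% oxygen and 170, 179 and 192 FPKM in 21% oxygen. The libraries of both low levels were all well above those of 21%, with differences of 1.19 ± 0.10 for 1% (adjusted p = 7.34e-11) and 1.28 ± 0.09 for 5% (adjusted p = 3.56e-12). HERPUD1 was higher by 1.33 ± 0.10 in 1% and 1.27 ± 0.09 in 5%, DNAJB9 by 1.51 ± 0.19 and 1.12 ± 0.17, SEC24D by 1.30 ± 0.20 and 0.80 ± 0.18, MANF by 1.09 ± 0.21 and 0.87 ± 0.19, and HSP90B1 by 0.63 ± 0.09 and 0.83 ± 0.08. ERO1L had the largest rise in both, 2.19 ± 0.16 in 1% and 1.44 ± 0.14 in 5%. HYOU1 had 0.10 ± 0.17 in 1% (adjusted p = 0.648) and 0.53 ± 0.16 in 5% (adjusted p = 0.00698), but 1% and 5% did not differ by the test between them (adjusted p = 0.0704), and its 53.2 FPKM in replicate 3 of 5% oxygen stood apart from at most 27.9 FPKM in the others. The calls of PDIA6, XBP1, EIF2AK3, SEL1L and EDEM1 in 1% were lost with the shallow library in the fit, which left 8 higher and 6 lower, against 53.2% of all genes (16.9% higher and 36.3% lower); with that library XBP1, listed at 0 there, had -0.74.

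**Figure D3:**
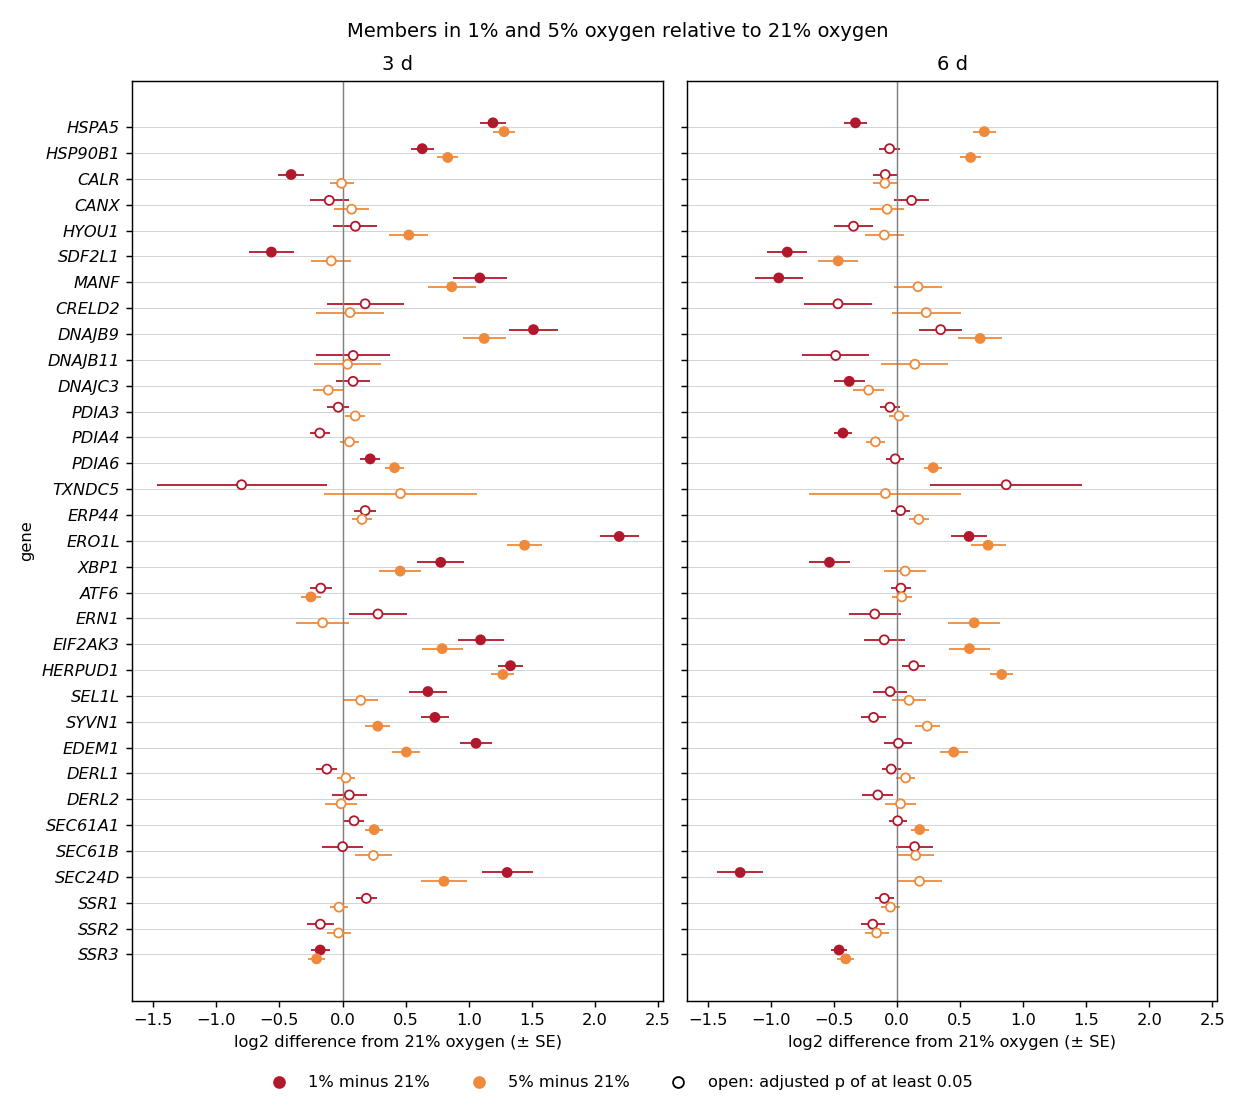
Log2 difference from 21% oxygen (± SE) of the 33 members in 1% and 5% oxygen at 3 d (left) and 6 d (right); filled points had an adjusted p under 0.05. At 3 d the points of both levels lie together to the right for HSPA5, HERPUD1, DNAJB9 and ERO1L, and at 6 d those of 1% lie to the left of those of 5% for HSPA5, HERPUD1, MANF and SEC24D. Both levels share the libraries of 21% oxygen.

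At 6 d the picture relative to 21% oxygen had changed. In 1% oxygen 9 members were called, ERO1L higher and 8 lower (HSPA5, SDF2L1, MANF, DNAJC3, PDIA4, XBP1, SEC24D and SSR3), against 29.9% of all genes (13.8% higher and 16.1% lower). In 5% oxygen 12 were called, 10 higher and 2 lower (SDF2L1 and SSR3), against 36.9% of all genes (15.2% higher and 21.7% lower). Without the filter on mean FPKM, 3717 of 21454 genes were called higher and 2284 lower in 5%. For 1% these were 1439 higher and 1619 lower. With the shallow library in the fit, 5 were called in 5% oxygen, 4 higher and 1 lower, against 14.8% of all genes (7.24% higher and 7.59% lower). In 1% oxygen 6 were called in that fit, 1 higher and 5 lower, against 620 of 10625 genes higher and 535 lower. Of the 13 members higher in 1% oxygen at 3 d, 1 was also called higher at 6 d, 4 were called lower and 8 were not called. Of all 2654 genes higher in 1% oxygen at 3 d, 30.6% were also higher at 6 d and 6.74% were lower. Of the 14 members higher in 5% oxygen at 3 d, 9 (64.3%) were also called higher at 6 d, 0 were called lower and 5 were not called, and of all 1663 such genes 66.6% were also higher and 0.722% lower, so the members' share in 5% was near the background. Including the shallow library, 1 of 8 members in 1% was called higher at both times, and 3 of the 8 turned lower. Of all 1791 such genes 19.5% were higher at both times and 2.96% turned lower. In 5% oxygen 4 of 11 members (36.4%) were then higher at both times, against 67.6% of all 877 such genes. The members' share in 5% was below the background in that fit. HSPA5 differed from 21% by -0.33 ± 0.09 in 1% (adjusted p = 0.0063) and by 0.69 ± 0.09 in 5% (adjusted p = 5.75e-07). HERPUD1 differed by 0.13 ± 0.09 in 1% (adjusted p = 0.283) and by 0.83 ± 0.09 in 5% (adjusted p = 2.82e-08). SSR3 was lower in both, by -0.46 ± 0.07 and -0.41 ± 0.07.

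The change of the difference between 1% and 5% with time was itself tested. With a moderated F test in limma over the 4 times, 14 members (42.4%) passed, against 36.3% of all genes, a share near the background. HSPA5 (adjusted p = 9.43e-06), SEC24D (adjusted p = 1.22e-05) and HERPUD1 (adjusted p = 7.86e-05) had the smallest values among the members. In the fit of all 36 libraries 8 passed, against 18.6% of all genes. For SEC24D the difference was 0.50 ± 0.20 at 3 d (adjusted p = 0.066) and -1.42 ± 0.18 at 6 d, and for EDEM1 it was 0.55 and -0.44, so the sign turned between these times. Averaged over the 4 times, 9 members (27.3%) were called lower in 1% and 0 higher, against 4% and 10.1% of all genes (14.1% in all). They were HSPA5 (-0.40 ± 0.05), MANF (-0.39 ± 0.10), SDF2L1 (-0.33 ± 0.08), HSP90B1 (-0.31 ± 0.04), HYOU1 (-0.29 ± 0.08), HERPUD1 (-0.22 ± 0.05), PDIA4 (-0.20 ± 0.04), CALR (-0.18 ± 0.05) and PDIA6 (-0.14 ± 0.04), 6 of them among the 8 chaperones. In the fit of all 36 libraries 5 passed, against 4.41% of all genes.

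At 6 h 0 members were called between 1% and 5% oxygen by limma, against 1.27% of all genes. An unadjusted p under 0.05 was found for 4 members and for 1630 of all 10586 genes. MANF came nearest, with 6.22, 5.74 and 9.22 FPKM in 1% oxygen and 10.9, 14.8 and 9.92 FPKM in 5% oxygen (-0.68 ± 0.19, adjusted p = 0.071). Against 21% oxygen at 6 h 0 members were called in either level (background 0.0945% for 1% and 0% for 5%). There 4 members in 1% and 5 in 5% had an unadjusted p under 0.05, as did 1155 and 1027 of all 10586 genes. Between 1% and 5% at 6 h none was called under any alternative run.

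At 24 h 3 members were lower in 1% than in 5% oxygen and 0 higher, against 0.945% and 1.99% of all genes (2.94% in all). HERPUD1 had 24.3, 30.5 and 25.3 FPKM in 1% oxygen and 34.7, 35.4 and 30.8 FPKM in 5% oxygen, with -0.33 ± 0.09 (adjusted p = 0.0432). HSP90B1 had 150.5, 157 and 141 FPKM in 1% oxygen and 195, 195 and 172 FPKM in 5% oxygen, with -0.32 ± 0.08 (adjusted p = 0.0239). ERP44, which retains client proteins and ERO1 in the early secretory pathway, had 29.2, 29.1 and 27.8 FPKM in 1% oxygen and 38.8, 34.7 and 34.6 FPKM in 5% oxygen, with -0.32 ± 0.08 (adjusted p = 0.0201). The groups did not overlap for these genes, but the calls were fragile: 0 members passed without replicate 1 of 5%, replicate 1 of 1% or replicate 3 of 1%, 1 without replicate 2 of 5%, and 0 with the shallow library in the fit (0.744% of all genes) or after rescaling to TPM. In replicate 3 of 5% oxygen 67.3% of the olfactory receptor genes were above 0, against 21.6% and 37.3% in the others, and its part was not tested.

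Relative to 21% oxygen at 24 h, 14 members were called in 1% (5 higher, 9 lower) and 6 in 5% (4 higher, 2 lower), against 38.7% of all genes for 1% (16.6% higher and 22.1% lower) and 28.3% for 5% (9.53% higher and 18.7% lower). Including the shallow library, 9 were called in 1% (16.2% of all genes) and 2 in 5% (9.38%). The direction there depends on the scaling: after rescaling to TPM the median of all genes was 0.38 for 1% and 0.36 for 5%. The members called were then 19 higher and 1 lower for 1% and 25 higher for 5%. Of all 11126 genes then tested, 5446 were called higher and 234 lower for 1%, and 4982 higher and 122 lower for 5%. ERO1L, SEL1L, DNAJB11 and PDIA6 were called higher in both levels, ERO1L by 0.66 ± 0.14 in 1% (adjusted p = 0.000656) and 0.37 ± 0.14 in 5% (adjusted p = 0.0473). SEC61B was called lower in both, by -0.76 ± 0.14 and -0.66 ± 0.14. Its libraries in 21% oxygen were 512, 621 and 900.2 FPKM, against 374, 463 and 343 FPKM in 1% and 499, 394 and 372 FPKM in 5%, and the highest of them came from replicate 3 of 21%, without which 2 members were called in 5%.

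The XBP1 transcripts bear on the cut by IRE1, which the gene table does not separate, but IRE1 activity itself was not measured. IRE1 removes 26 bases from the messenger RNA, which shifts the reading frame, and the transcript table lists XBP1 with and without them. The stretch around the cut is shown from the GENCODE transcripts, with the removed bases in capitals; their ends can be placed in 7 ways that give the same product, and the one at the known IRE1 sites is printed.
XBP1 transcript with the 26 bases: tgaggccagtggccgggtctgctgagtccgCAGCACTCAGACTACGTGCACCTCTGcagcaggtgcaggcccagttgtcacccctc
XBP1 transcript without them: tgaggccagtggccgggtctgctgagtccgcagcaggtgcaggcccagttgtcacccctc

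The share of XBP1 FPKM that the authors' processing assigned to the spliced transcript was very uneven between replicates. In 21% oxygen at 6 h it was 99.99%, 30.8% and 45.0%, a spread that covers most of the scale within 1 group. At 3 d it was 100% and 67.3% in 1% oxygen, 61.0%, 50.5% and 42.3% in 5% oxygen and 15.0%, 38.1% and 13.6% in 21% oxygen. The groups did not overlap at that time, with 1% highest and 21% lowest; the shallow library listed both transcripts at 0. At 6 d it was 41.0%, 51.8% and 30.6% in 1% oxygen, 58.4%, 42.0% and 28.3% in 5% oxygen and 24.1%, 38.7% and 0.0721% in 21% oxygen, and the groups overlapped. Averaged over the 4 times 1% exceeded 5% by 9.76 percentage points, which is within what relabelling libraries within times gives (exact two-sided permutation test over 80000 arrangements, p = 0.27).

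**Figure D4:**
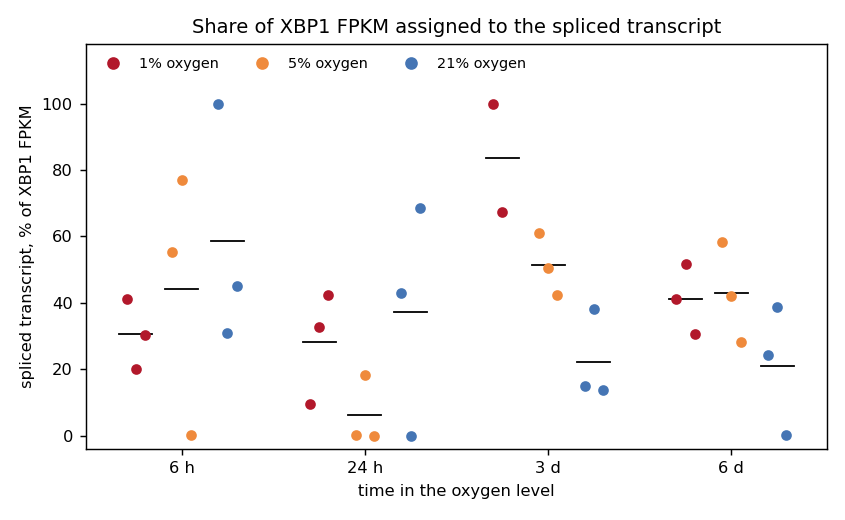
Share of XBP1 FPKM assigned to the transcript without the 26 bases, in percent, for each library (points) by time and oxygen level, with the group mean as a bar; the shallow library has no value. At 3 d the groups order from 1% to 21%, while at 6 h and 24 h the libraries of 1 group spread over much of the axis.

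Genes around the members, from lists chosen with earlier results of these data known, were counted in the same fit. The shares of all genes to read these counts against are 11.4% lower and 16.1% higher at 6 d, and 10.4% lower and 16.5% higher at 3 d, and with the shallow library 3.9% and 4.72% at 6 d, and 23.2% and 13.4% at 3 d. Of 17 tested genes of upstream signalling and the ATF4 branch, 8 were lower in 1% than in 5% at 6 d and 0 higher (median -0.25). At 3 d 7 were higher and 1 lower (median 0.27), or 4 higher and 3 lower with the shallow library (median 0.11). DDIT3, which encodes the stress factor CHOP, had 88.2, 87.8 and 95.4 FPKM in 1% oxygen at 6 d, against 261, 236 and 228 FPKM in 5% oxygen and 59.1, 58.9 and 55.2 FPKM in 21% oxygen (1% against 5%, -1.40 ± 0.10, adjusted p = 1.38e-11). Unlike HSPA5, DDIT3 in 1% oxygen stayed above every library of 21%. TRIB3, a CHOP target that restrains AKT and ATF4, differed at 6 d by -1.21 ± 0.18, and the transmembrane factors CREB3 and CREB3L2 by -0.75 ± 0.09 and -0.89 ± 0.16. DDIT4, an inhibitor of mTORC1, was higher in 1% at 3 d by 0.66 ± 0.10 (adjusted p = 3.39e-05).

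Of 20 genes of COPII coats and retrieval, 5 were lower and 0 higher at 6 d (median -0.20), among them the cargo receptor SURF4 (-0.46 ± 0.09) and the KDEL receptor KDELR3 (-0.80 ± 0.15). At 3 d 2 were higher and 2 lower, or 0 and 5 with the shallow library. Of 24 tested genes of other folding enzymes, 6 were lower and 2 higher at 6 d (median -0.09), led by the disulfide enzymes QSOX1 (-0.77 ± 0.11, adjusted p = 4.45e-06) and P4HB (-0.39 ± 0.08, adjusted p = 0.000858), and 6 were lower and 3 higher at 3 d (10 and 3 with the shallow library). The remaining degradation genes, 23 in number, split into 4 lower and 3 higher at 6 d, near the background, and 3 lower and 2 higher at 3 d (9 and 1 with the shallow library). The 25 genes of translocation and glycosylation split into 4 lower and 6 higher at 6 d, and 7 lower and 2 higher at 3 d (11 and 3 with the shallow library).

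Of 14 genes of the HSP70 and HSP90 systems of the cytosol, 3 were higher and 0 lower in 1% than in 5% at 6 d (median 0.08), with HSPA8 at 0.34 ± 0.07 (adjusted p = 0.000831). At 3 d 5 were lower and 0 higher (10 and 0 with the shallow library), with STIP1, which links both systems, at -0.59 ± 0.08 (adjusted p = 2.43e-05). The counts at 6 d that include the shallow library were 5 lower of the signalling list, 2 lower of the COPII list, 3 lower of the other folding enzymes, 2 lower of the degradation list, 2 lower and 2 higher of the translocation list and 2 higher of the cytosolic list.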

How the data were processed

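Per the submitters' processing notes and the design text, the authors aligned 2x25 base read pairs with TopHat and made FPKM values per gene and transcript with the Cufflinks suite (Cuffnorm) from polyA RNA of 36 K562 libraries; for tool versions, genome build and gene models nothing is given in the sources used here. The deposited FPKM values carry no counts, so depth is unknown beyond a relative estimate. From them log2(FPKM + 1) was fitted with limma 3.58.1 (R 4.3.3) as 12 group means. The prior was trended and 23 degrees of freedom remained. The fit held 35 libraries and the 10586 genes whose mean reached 1 FPKM; the shallow library was left out for its technical state. Two-sided moderated tests were adjusted by the Benjamini-Hochberg method over all genes tested. The procedure was tested on simulated data. Alternatives were all 36 libraries, a pseudocount of 0.1, no filter, the replicate number as a block, quantile normalisation, rescaling to TPM and leaving out each library. The members, the lists, the tests and the rule for naming genes (all members, and up to 4 genes of each other list with the smallest adjusted p) were chosen with earlier results of these data known. Promoter windows are RefSeq's and transcripts GENCODE's, on GRCh38.p14 and GRCh38; motifs were searched as exact letters on both strands.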

Additional observations from a re-analysis of the deposited data

Results flagged for a closer look

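The difference between 1% and 5% oxygen varied over the 4 times, by the moderated F test in limma, for 14 members, against 36.3% of all genes, and these were flagged because the effect of oxygen differed between times. HSPA5 (adjusted p = 9.43e-06), HERPUD1 (7.86e-05), MANF (0.00164), HSP90B1 (0.002), EIF2AK3 (0.0179), XBP1 (0.0184) and ERN1 (0.0211) had their lowest difference at 6 d, between -1.10 and -0.60. SEC24D (adjusted p = 1.22e-05), SYVN1 (0.000411) and EDEM1 (0.000455) had a difference above 0 at 3 d and below 0 at 6 d. ERO1L (adjusted p = 0.00276), SEL1L (0.0395) and SSR1 (0.0424) had their highest at 3 d, at 0.75, 0.53 and 0.22. ERP44 (adjusted p = 0.0208) had its lowest at 24 h, at -0.32. With the shallow library in the fit, 8 of the 14 passed and EDEM1, EIF2AK3, XBP1, ERP44, SEL1L and SSR1 did not.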

How the results depend on the processing

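Between 1% and 5% oxygen, no setting gave a member called higher at 24 h or 6 d. With all 36 libraries, the shallow one included, they were 0 at 24 h, 14 at 3 d, 7 at 6 d and 5 averaged for 1% against 5%, 9 for 1% against 21% at 24 h, 2 and 5 for 5% against 21% at 24 h and 6 d, and 8 for the change with time. Quantile normalisation gave 5 at 24 h and 19 at 6 d for 1% against 5%, all lower. Of all 10586 genes, 1617 were then called higher and 1297 lower at 6 d. TPM rescaling gave 0 at 24 h for 1% against 5%, and all 7 then called at 3 d were higher. For 5% against 21% at 24 h it gave 25, with 4982 of 11126 genes called higher and 122 lower. It moved the median of all genes to 0.25 at 3 d and -0.12 at 6 d for 1% against 5%, and to -0.22 for 5% against 21% at 3 d. Their calls between 1% and 5% were then 2587 higher and 310 lower at 3 d, and 132 higher and 19 lower at 24 h, and under quantile normalisation 1280 higher and 1491 lower at 3 d and 275 higher and 254 lower at 24 h; the cause was not tested. PDIA4 at 3 d was -0.03 under TPM and -0.06 under quantile normalisation. Leaving out each library gave 0 to 4 members at 24 h, 3 to 8 at 3 d, 12 to 14 at 6 d and 9 to 11 averaged for 1% against 5%, 10 to 14, 14 to 17 and 7 to 9 for 1% against 21%, 2 to 8, 12 to 16 and 9 to 12 for 5% against 21% at 24 h, 3 d and 6 d, and 11 to 17 for the change with time. Without replicate 3 of 5% oxygen at 24 h, 3 members were called for 5% against 21%. The XBP1 share ran from 4.25 to 13.9 points, and has no value with the shallow library. Replicate numbers did not pair the samples: 2 of 34 correlations of same-numbered deviations were above 0.1, and 11 were highest with their own number. With the replicate block 6 members were called at 3 d and 12 at 6 d for 1% against 5%, SDF2L1 at 3 d lost its call, and the XBP1 difference was 8.64 points (exact permutation p = 0.343). Of all 10586 genes, the block gave 1597 higher and 1000 lower at 3 d, and 1658 higher and 1178 lower at 6 d. FPKM without counts give no counting error, so low genes such as EIF2AK3 are limited by unknown depth.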
